A study of Mus musculus with 23 samples.

Results

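The Akr1c cluster on mouse chromosome 13 holds genes of the aldo-keto reductase family in a row, and MBD-seq of prefrontal cortex gave the methylation of its CpG regions. Every 150 bp CpG region that started between 4.04 and 4.66 Mb (GRCm38) was taken, which gave 73 of 210191 regions. The stretch was selected on the p-values for treatment and for its interaction with strain at one of them, chr13:4075651-4075800 in Akr1c14, called the index region here. The treatment and interaction values of the index region are therefore a description, with no test. The questions were whether that change reached the rest of the cluster and how the strains differed along it.

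The 23 mice were C57BL/6J (B6) or DBA/2J (D2). In the CORT+DFP groups, 6 B6 and 6 D2 mice drank corticosterone (CORT, 20 mg%, the stress hormone of rodents) for 7 days, were injected once with diisopropyl fluorophosphate (DFP, 4 mg per kg, a surrogate of the nerve agent sarin), and then received more rounds of corticosterone. The 5 B6 and 6 D2 control mice kept the same schedule with plain water and saline, so the effects of the 2 agents cannot be told apart. The mice belong to 3 sets, read from the first part of their names, whose meaning the labels do not give. In set 1 there were 5 D2 mice (2 CORT+DFP, 3 control) of 196 days and 3 CORT+DFP mice of the B6 strain, of 218 to 226 days. Set 2 held the other 8 B6 mice (145 days), and set 3 held the other 7 D2 mice (147 days). All B6 control mice were in set 2, so that set and strain cannot be told apart among control mice, and age is a term in the model. There were 11 females and 12 males, each a separate mouse.

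The enzymes encoded here reduce carbonyl groups of steroids and other small molecules with NADPH. Akr1c14 reduces dihydroprogesterone to allopregnanolone, a neurosteroid that acts on GABA-A receptors, and it reduces and inactivates other ring-reduced steroids. Akr1c18 inactivates progesterone, Akr1c6 makes testosterone from androstenedione, Akr1c21 makes the inactive isomer epitestosterone, and Akr1e1 reduces a sugar derivative, anhydrofructose. Akr1c12, Akr1c13, Akr1c19 and Akr1c20 are close relatives. In MBD-seq, the MBD2 protein captures DNA fragments through their methylated CpGs, so that the reads on a region rise with its methylation and with its number of CpGs. The values are log2 RPKM (reads scaled by the length of the region and the depth of the library), a relative level that is not a percent of methylated cytosines.

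The captured regions lay away from the promoters. Of the 9 genes, 4 had a region in their body: Akr1c14 had 15, Akr1c6 had 3, Akr1c20 had 2 and Akr1e1 had 1. The other 5 (Akr1c18, Akr1c13, Akr1c19, Akr1c12 and Akr1c21) had none, and the nearest region to them was between 5975 bp (Akr1c21) and 115050 bp (Akr1c13) from the start site. No region overlapped an exon of the 9 genes or came within 1 kb of a start site. The remaining regions were outside genes (48) or in the pseudogenes Gm9973 and Rpl29-ps2 (4).

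To show what the start sites hold, the RefSeq promoters (300 bases around the start site, most of them before it, GRCm38.p6) are printed in lower case with each CpG in capitals. Those of Akr1c14 (chr13:4059341-4059640, plus strand), Akr1c6 (chr13:4434093-4434392, plus strand) and Akr1e1 (chr13:4609115-4609414, minus strand) are shown because these genes have captured regions in their bodies, and those of Akr1c13 (chr13:4190937-4191236, plus strand) and Akr1c12 (chr13:4279350-4279649, minus strand) because they are nearly alike.
Akr1c14: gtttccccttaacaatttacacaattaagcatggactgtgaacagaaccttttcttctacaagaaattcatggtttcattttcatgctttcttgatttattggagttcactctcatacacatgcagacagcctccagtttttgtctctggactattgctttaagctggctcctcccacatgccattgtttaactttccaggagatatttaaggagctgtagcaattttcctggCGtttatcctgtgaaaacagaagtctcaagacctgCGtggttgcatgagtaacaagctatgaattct
Akr1c6: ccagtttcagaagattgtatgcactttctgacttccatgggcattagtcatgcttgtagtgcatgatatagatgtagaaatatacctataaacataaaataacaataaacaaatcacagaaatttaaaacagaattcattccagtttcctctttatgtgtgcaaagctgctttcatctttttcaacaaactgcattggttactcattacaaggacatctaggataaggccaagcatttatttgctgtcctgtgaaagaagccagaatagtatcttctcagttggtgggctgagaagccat
Akr1e1: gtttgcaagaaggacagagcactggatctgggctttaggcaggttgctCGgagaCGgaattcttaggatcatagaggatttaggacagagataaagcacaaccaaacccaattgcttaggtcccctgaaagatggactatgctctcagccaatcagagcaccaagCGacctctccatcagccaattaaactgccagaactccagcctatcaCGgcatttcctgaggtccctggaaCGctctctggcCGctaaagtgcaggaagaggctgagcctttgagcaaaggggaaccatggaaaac
Akr1c13: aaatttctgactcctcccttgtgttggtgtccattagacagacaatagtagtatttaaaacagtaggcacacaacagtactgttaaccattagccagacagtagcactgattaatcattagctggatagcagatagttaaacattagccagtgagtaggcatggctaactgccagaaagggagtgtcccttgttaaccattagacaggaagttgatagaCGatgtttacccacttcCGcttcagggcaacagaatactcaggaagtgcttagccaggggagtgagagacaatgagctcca
Akr1c12: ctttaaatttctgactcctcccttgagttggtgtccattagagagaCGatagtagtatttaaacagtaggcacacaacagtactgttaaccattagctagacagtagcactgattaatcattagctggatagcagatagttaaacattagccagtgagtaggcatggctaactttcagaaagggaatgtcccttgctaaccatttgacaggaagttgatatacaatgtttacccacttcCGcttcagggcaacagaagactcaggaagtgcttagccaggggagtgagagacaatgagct
The promoter of Akr1c14 holds 2 CpGs, that of Akr1c6 none and that of Akr1e1 6. Across the 8 promoters found (the table used has none for Akr1c20), Akr1c18 had 5 CpGs, Akr1c12 and Akr1c13 had 2 each, and Akr1c19 and Akr1c21 had 1 each. The median of all 32851 promoters was 7, and 47.9% had 6 or fewer. None of the 8 overlapped a captured region, as was true of all but 2.88% of promoters. The promoters of Akr1c13 and Akr1c12 shared 284 of 296 aligned bases (95.95%). Whether a read was counted when it matched more than 1 place is not given in the sources used here, so values near copies of a sequence are uncertain.

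The 73 regions formed 18 runs of touching regions, 4 of them of a single region. Since each read was extended to 150 bp, neighbours in a run share fragments and are not independent. The limits of the stretch fell in gaps between captured regions: the outermost regions inside started at 4066201 and 4614301, with strain differences of 0.05 and -0.02 log2 RPKM, and the nearest outside at 4017451 and 4800451, with 0.01 and 0.10. The regions held 1 to 13 CpGs (median 5, against 6 over all regions) and were denser than on the chromosome as a whole, with 118 per Mb against 80.4 per Mb. A mouse had 8 to 147 reads in a region, with a median of 45, and no region fell to a mean of 3 reads or fewer in either strain, so no region was lost from one strain. Total reads ranged from 9776537 to 18428398 per mouse, and the mouse with the fewest was B6 control 1, which was the lowest B6 control mouse in 21 regions and the highest in 23. Group means ranged from 3.50 to 5.67 log2 RPKM, with a median SD of 0.21 within a group. The level peaked in the longest run, 16 regions between Akr1c12 and Akr1c6 (chr13:4338451-4340850), where D2 control mice reached 5.67 at chr13:4339651-4339800.

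The strains differed at 13 of the 73 regions in control mice, with 12 higher and 1 lower in D2. This is 12 of 73 against 10.5% of all regions that were higher in D2, and 1 of 73 against 15.2% that were lower. The strain contrast was not the one that chose the cluster. The differences called higher ranged from 0.38 to 0.80 on the log2 scale, with a median of 0.51. Over all 73 regions the median difference was 0.18, against 0.007 over all regions, and 60 were positive. These are fitted values with age in the model, and the share of positive estimates over all regions was not computed. The 13 regions lay in 6 runs, 3 in Akr1c14, 9 outside genes and 1 in Akr1e1. They had a median of 8 CpGs and 49 reads, against 5 CpGs and 44 reads in the others. In bulk tissue, fewer cells that carry a methylated site and less methylation per cell cannot be told apart. Reads of both strains were aligned to GRCm38, and the paper describes many sequence variants between B6 and D2. The variants in these regions were not checked. Whether CpGs gained or lost, read mapping or copy number contribute to the strain differences was not tested.

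**Figure D1:**
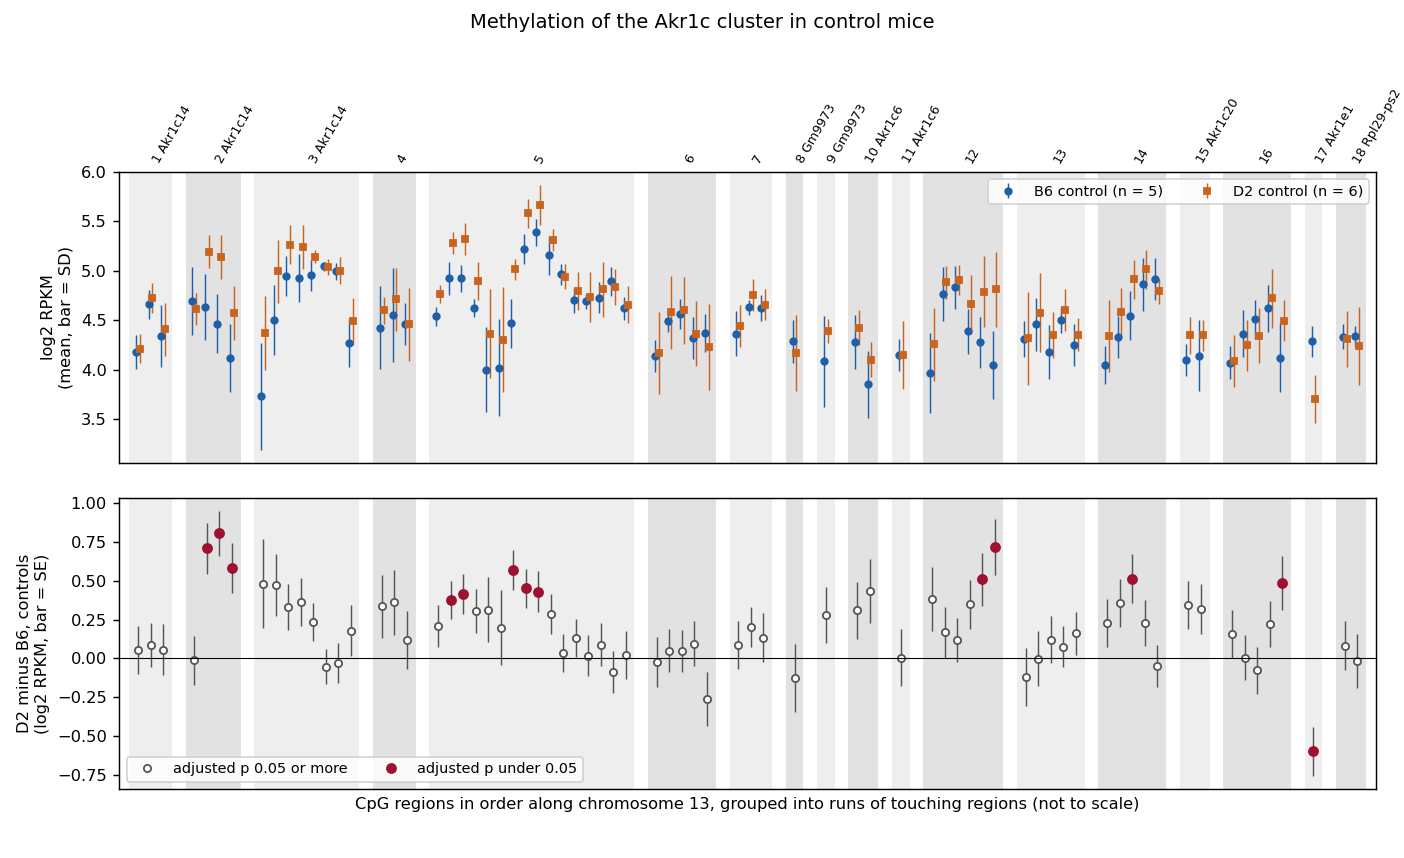
Upper panel: mean log2 RPKM (bar, SD) of B6 control (blue, n = 5) and D2 control mice (orange, n = 6) at each of the 73 CpG regions in genomic order. Lower panel: fitted D2 minus B6 difference in control mice (bar, SE), filled where the adjusted p is under 0.05. The 12 filled points above 0 lie in 5 runs, and the 1 below 0 is the Akr1e1 region.

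All 15 Akr1c14 regions lay in intron 3 of the 9-exon GENCODE transcript (chr13:4065442-4077969), in 3 runs of 3, 4 and 8 regions. The second run (chr13:4069351-4069950) held the largest strain difference of the cluster among control mice. At chr13:4069651-4069800, which has 11 CpGs, the B6 control mice had 4.04, 4.40, 4.52, 4.52 and 4.86 log2 RPKM, and the D2 control mice ranged from 4.76 through a median of 5.18 to 5.33. One D2 mouse lay below the highest B6 mouse, and otherwise the strains were apart. The fitted difference was 0.80 with an SE of 0.14 (limma, adjusted p = 3.48e-05). The region before it, chr13:4069501-4069650, was 0.71 higher in D2 with an SE of 0.16 (limma, adjusted p = 0.0011), and its control groups did not overlap. The region after it, chr13:4069801-4069950, was 0.58 higher with an SE of 0.16 (limma, adjusted p = 0.0057). The first region of this run, chr13:4069351-4069500, had a difference of -0.01 with an SE of 0.16, 150 bp away from one of 0.71.

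B6 control 1 was the lowest B6 control mouse in all 4 regions of the second run. Without it, the difference at chr13:4069651-4069800 was 0.70 and stayed past the threshold. The D2 control mice were also split by set in part of this run. At chr13:4069651-4069800 the 3 of set 3 lay between 5.27 and 5.33 and the 3 of set 1 between 4.76 and 5.08. At the region starting at 4069801 they lay at 4.73 to 4.86 and 4.23 to 4.51, in the same order. The sets overlapped at the regions starting at 4069351 and 4069501.

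In the first run of Akr1c14 (chr13:4066201-4066650) the strain differences were 0.05 to 0.09, with SEs of 0.14 to 0.16. In the third run (chr13:4074901-4076100) they had a median of 0.28, and 6 of 8 were positive. They were 0.48 at the first region and -0.05 and -0.03 at the sixth and the seventh, and none of the 8 passed the test. The sixth is the index region. Its B6 control mice had 4.99 to 5.12 log2 RPKM and its D2 control mice 4.93 to 5.12, so that the strains overlapped fully without treatment.

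Outside the genes, 5 of the 9 called regions were in the long run between Akr1c12 and Akr1c6, all in its first 9 regions. At chr13:4339351-4339500, which has 3 CpGs, the B6 control mice had 4.24, 4.25, 4.42, 4.64 and 4.80 log2 RPKM and the D2 control mice 4.88 to 5.12 with a median of 5.03. The groups did not overlap. The difference was 0.57 with an SE of 0.13 (limma, adjusted p = 0.000826). The others of this run were 0.38 to 0.45 higher in D2. In the last 6 regions of the run the differences were between -0.09 and 0.13.

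Downstream of Akr1c6, the run at chr13:4459651-4460550 ended with 2 called regions. The last, chr13:4460401-4460550, had 3.49, 3.99, 4.13, 4.25 and 4.37 log2 RPKM in B6 control mice and 4.19 to 5.28, with a median of 4.85, in D2 control mice. One D2 mouse of set 3 lay within the B6 values. The difference was 0.72 with an SE of 0.18 (limma, adjusted p = 0.0023). Between Akr1c6 and Akr1c20, chr13:4464151-4464300 was 0.51 higher in D2, and before Akr1c21, chr13:4567951-4568100 was 0.48 higher. The latter was the nearest captured region to Akr1c21, 5975 bp from its start site.

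Akr1e1 went the other way. Its only region, chr13:4606051-4606200, with 3 CpGs, lay 2974 bp from the start site. The B6 control mice had 4.03, 4.28, 4.31, 4.34 and 4.46 log2 RPKM, and the D2 control mice 3.42 to 3.97 with a median of 3.74, all below the B6 mice. The difference was -0.60 with an SE of 0.16 (limma, adjusted p = 0.0041). In the CORT+DFP mice the strains overlapped, at 3.91 to 4.44 in B6 and 3.46 to 4.32 in D2.

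The regions in the other genes did not pass the test. In Akr1c6 the region with the smallest strain p was chr13:4439851-4440000, at 3.338 to 4.19 log2 RPKM in B6 and 3.78 to 4.29 in D2 control mice, for a difference of 0.43 with an SE of 0.20. In Akr1c20 it was chr13:4500451-4500600, at 3.89 to 4.34 in B6 and 4.02 to 4.52 in D2 control mice, for a difference of 0.34 with an SE of 0.16. The adjusted p-values were 0.13 and 0.12 (limma).

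The control groups did not overlap at 5 of the 73 regions, against 18.4% of all regions, and all 5 were among the 13. The comparison at nearly equal age used the 5 B6 control mice (145 days) and the 3 D2 control mice of set 3 (147 days). These groups did not overlap at 18 of the 73 regions, against 25.9% of all regions. At the 13 called regions, which were called on these and other mice, the differences of the plain means had the same signs, with 0.31 to 0.85 at those higher in D2. Of the 13, 8 stayed past the threshold whichever mouse was left out. The other 5 did not: chr13:4338601-4338750 was lost when 1 of 4 mice was left out (B6 control 2, 4 or 5, or D2 control 6), chr13:4338751-4338900 without D2 control 6, chr13:4460251-4460400 when 1 of 4 was left out (B6 control 2 or 3, or D2 control 2 or 6), chr13:4464151-4464300 without B6 control 2, and chr13:4567951-4568100 when 1 of 7 was left out. Over the fits with 1 mouse left out, their estimates stayed between 0.34 and 0.67. A fit of the set 1 mice alone, D2 control mice included, had treatment and sex but no age in the model. Its strain difference among CORT+DFP mice had the same sign at 12 of the 13 regions, and chr13:4069801-4069950 did not (-0.17). The B6 mice of set 1 were 218 to 226 days old and the D2 mice 196 days. This contrast contains the interaction that chose the cluster, so nothing is read from these signs. With the set in place of age in the model, 2 of the 73 regions were higher in D2 past the threshold, against 4.66% of all regions in that fit, and 0 were lower, against 10.9%. At chr13:4069651-4069800 the difference was then 0.60 with an adjusted p of 0.0676 (limma).

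Among the CORT+DFP mice, 10 of the 73 regions were higher in D2, against 11.0% of all regions, and 0 were lower, against 16.0%. The median difference of the 73 regions was 0.001, against 0.017 over all regions, with 37 positive and 36 negative. This contrast contains the interaction that chose the cluster, so nothing is read from these values. The 10 lay in the third run of Akr1c14 (4, among them the index region), the long run between Akr1c12 and Akr1c6 (4) and the run downstream of Akr1c6 (2). Of them, 4 were also called in control mice, and none of these was in Akr1c14. In the second run of Akr1c14 the differences among CORT+DFP mice were 0.31, 0.29 and 0.11 at the 3 regions called in control mice, with adjusted p-values of 0.14, 0.12 and 0.68 (limma). By set 1 mice alone, 2 of the 73 were higher in D2, against 4.51% of all regions, and 0 lower, against 12.3%.

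**Figure D2:**
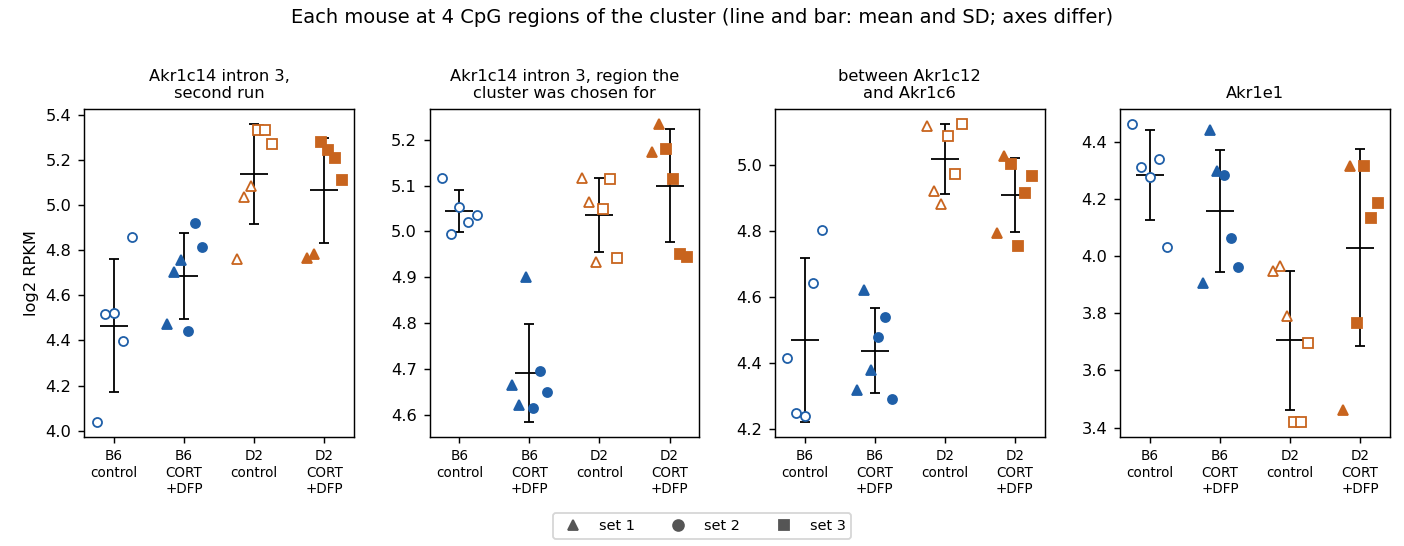
Log2 RPKM of each mouse at 4 CpG regions, by strain and treatment, with the mean and SD of each group. Shapes mark the 3 sets, and the vertical axes differ. From left to right, D2 control mice (4.76 to 5.33) lay above most B6 control mice (4.04 to 4.86) in the second run of Akr1c14, the B6 CORT+DFP mice (4.62 to 4.90) lay below the other groups at the index region, D2 mice (4.75 to 5.12) lay above most B6 mice (4.24 to 4.80) between Akr1c12 and Akr1c6, and D2 control mice were lowest in Akr1e1.

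At the index region, chr13:4075651-4075800 (7 CpGs), the B6 control mice had 4.99, 5.02, 5.04, 5.05 and 5.12 log2 RPKM. The B6 CORT+DFP mice ranged from 4.62 through a median of 4.66 to 4.90, all below the B6 control mice. The D2 control mice ranged from 4.93 through 5.06 to 5.12 and the D2 CORT+DFP mice from 4.95 through 5.14 to 5.23. The fitted change was -0.42 with an SE of 0.12 in B6 and 0.08 with an SE of 0.10 in D2. It was -0.39 in the B6 mice of set 2 alone, at equal age, and 0.16 and 0.04 in the D2 mice of set 1 and of set 3.

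The region right after it, chr13:4075801-4075950 (12 CpGs), had the same direction. The B6 control mice had 4.89, 4.91, 5.05, 5.05 and 5.06 log2 RPKM, and the B6 CORT+DFP mice 4.49 to 4.95 with a median of 4.68. Only the highest CORT+DFP mouse lay within the control values. The fitted change was -0.33 in B6 with an SE of 0.14, with an unadjusted p of 0.023 over n = 23 mice and an adjusted p of 0.853 (limma). The 2 regions touch and share fragments, so the second is no independent case. The third region of this end of the run, chr13:4075951-4076100, changed by -0.20 with an SE of 0.18.

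The lower level did not run through the rest of Akr1c14. In the run itself, the second to the fifth regions changed by -0.03 to 0.11 in B6, and the first, chr13:4074901-4075050, by -0.46 with an SE of 0.30. That region has 2 CpGs, a median of 30 reads, and an SD of 0.54 among the B6 control mice. In the first and the second run, all 7 estimates in B6 were positive, between 0.05 and 0.41. The largest, at chr13:4069651-4069800, was 0.41 with an SE of 0.15, an unadjusted p of 0.012 over n = 23 mice and an adjusted p of 0.853 (limma). The B6 CORT+DFP mice there had 4.44 to 4.92 log2 RPKM, within or just above the control range of 4.04 to 4.86. The lowest control value was that of B6 control 1, and the other B6 control mice had 4.40 to 4.86. The fit also removes the estimated effect of age. Averaged over the second run, the plain means were 4.48 in B6 control and 4.59 in B6 CORT+DFP mice. Of the 14 other Akr1c14 regions, 5 had a negative and 9 a positive estimate in B6, and the B6 groups overlapped in all 14. The index region was chosen on its treatment p-value, and the share of all regions without overlap was not computed. Nothing is therefore read from the overlap.

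**Figure D3:**
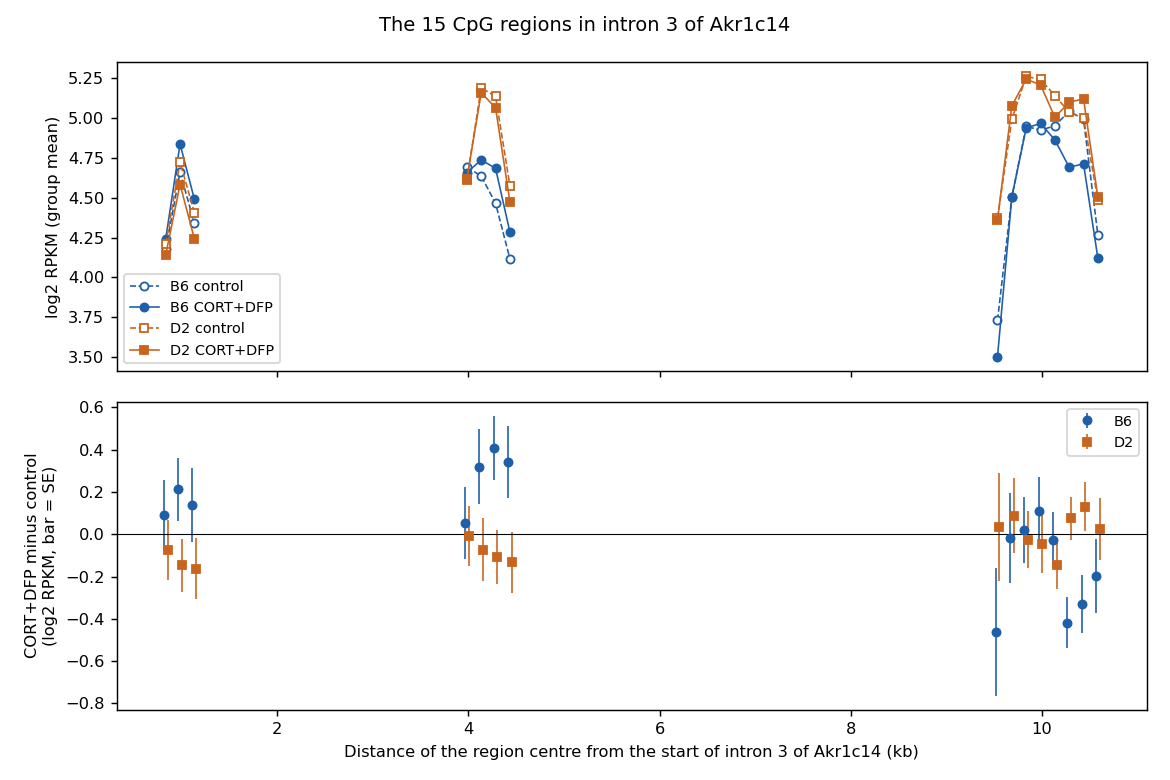
Upper panel: mean log2 RPKM of the 4 groups at the 15 CpG regions in intron 3 of Akr1c14, against the distance from the start of the intron. Lower panel: fitted CORT+DFP minus control difference in B6 (blue) and D2 mice (orange), with SE. The B6 groups do not overlap at the sixth region of the last run, the index region (-0.42), which was chosen on its treatment p-value. They overlap at all others, the seventh included (-0.33). Among control mice, the fitted strain difference is largest in the second run.

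Across the cluster, no region passed an adjusted p of 0.05 for treatment in B6, and the smallest outside the index region was 0.847 (limma). At an unadjusted p under 0.05 there were 6 regions beside the index region, or 7 of 73 with it, against 5.79% of all regions. Of the 7, 2 were lower in CORT+DFP mice, the touching pair in Akr1c14. The other 5 were higher, 1 in the second run of Akr1c14, 2 in the long run between Akr1c12 and Akr1c6, and 2 at chr13:4464001-4464300. The B6 groups overlapped at each of these 5, but no share over all regions was computed to set this against. At chr13:4339801-4339950, for example, the B6 control mice had 4.87 to 5.36 and the B6 CORT+DFP mice 4.85 to 5.70, for an estimate of 0.41 with an SE of 0.14. The difference of the plain means there was 0.22, since the fit also removes the estimated effect of age. Among the B6 mice of set 2, of equal age, the fitted value with sex in the model was 0.45. In these mice alone 5 of 73 regions had an unadjusted p under 0.05, against 7.03% of all regions. Without age in the model there were 2 of 73, both lower, against 3.80% of all regions. The index region, which has no test, was left in for this count and for that of set 2.

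In D2 mice, 3 of 73 regions had an unadjusted p under 0.05 for treatment, against 5.46% of all regions, and none an adjusted p under 0.05 (smallest 0.895, limma). The Akr1e1 region changed by 0.33 with an SE of 0.14, from a median of 3.74 log2 RPKM in D2 control to 4.16 in D2 CORT+DFP mice, whose ranges overlapped. The Akr1c20 region chr13:4500451-4500600 changed by -0.30 with an SE of 0.14, and chr13:4308151-4308300, upstream of Akr1c12 on the minus strand, by -0.38 with an SE of 0.18. At both, D2 CORT+DFP 1 was the lowest of its group, with 3.53 and 3.31 log2 RPKM. The other D2 CORT+DFP mice had 3.90 to 4.46 and 3.90 to 4.95. The D2 control mice had 4.02 to 4.52 and 4.51 to 4.87.

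For the treatment-by-strain interaction (the D2 effect minus the B6 effect), 13 of 73 regions had an unadjusted p under 0.05, or 12 without the index region, against 7.04% of all regions. No region passed an adjusted p of 0.05 (smallest outside the index region 0.669, limma). Over all 73 regions 55 were negative, with a median of -0.15, against a median of -0.001 over all regions. Neighbours in a run share fragments, so these are not counts of independent regions. Of the 13, 3 were positive and 10 negative, against 7395 positive and 7408 negative among all regions at that threshold. The positive ones were the touching pair in Akr1c14 (0.49 and 0.46) and the Akr1e1 region (0.50). The negative ones were spread over 6 runs, at -0.63 to -0.44, and opposed the direction at the index region. Among them were chr13:4069651-4069800 in Akr1c14 (-0.52 with an SE of 0.20), chr13:4339801-4339950 (-0.48 with an SE of 0.18) and chr13:4500601-4500750 in Akr1c20 (-0.55 with an SE of 0.23). At the region in Akr1c14, B6 control 1 was the lowest B6 control mouse, and all these fits remove the estimated effect of age. The interaction and the strain difference share their control mice, so their signs are not independent. Without age in the model, 3 of 73 regions had an unadjusted p under 0.05, all positive and the index region among them, against 4.00% of all regions.

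**Figure D4:**
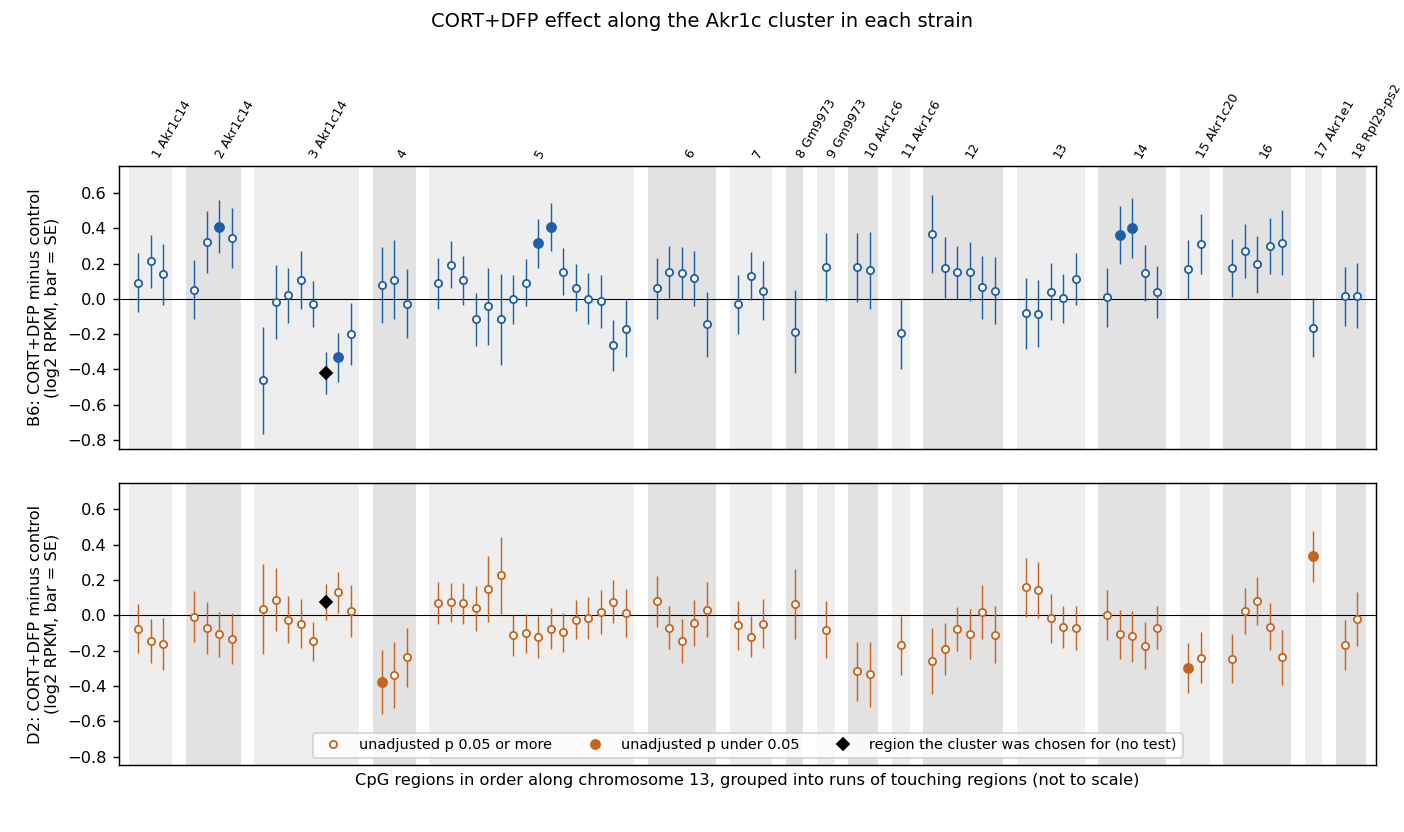
Fitted CORT+DFP minus control difference in B6 (upper) and D2 mice (lower) at each of the 73 CpG regions, with SE. Filled points have an unadjusted p under 0.05 and the diamond is the index region, which has no test. In B6, 1 filled point beside the diamond is below 0 and 5 are above 0.

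Between the sexes, none of the 73 regions passed an adjusted p of 0.05 (smallest 0.128, limma), and 6 had an unadjusted p under 0.05, against 7.93% of autosomal regions. The smallest p was at chr13:4343851-4344000, between Akr1c12 and Akr1c6, which was 0.27 higher in males with an SE of 0.10.

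Among other genes of steroid metabolism and of the aldo-keto reductase family, 20 of 34 listed genes had captured regions, 81 in all. In control mice 5 of these regions were higher and 9 lower in D2 past an adjusted p of 0.05, which is 6.17% and 11.1% of them, against 10.5% and 15.2% of all regions. The 5 higher regions were all in Akr1d1, another reductase of steroid hormones and bile acid precursors, with 0.59 at the one of smallest p. The 9 lower ones included 2 in Srd5a1, which makes the dihydroprogesterone that Akr1c14 reduces, at -1.70 for the one of smallest p. The others lay in Akr7a5 (2), Srd5a3 (2), Hsd17b3, Hsd17b4 and Sult2b1 (1 each). None of the 81 passed an adjusted p of 0.05 for treatment in B6 or for the interaction, and 4 and 7 had an unadjusted p under 0.05, which is 4.94% and 8.64%, against 5.79% and 7.04% of all regions. In control mice the median strain difference of the list was -0.07, against 0.18 in the Akr1c cluster. Among CORT+DFP mice this order did not hold, with 0.08 in the list and 0.001 in the cluster.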

How the data were processed

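MBD-seq libraries of the prefrontal cortex of 23 mice were analysed. Per the paper's methods, the authors aligned paired-end reads to GRCm38 with STAR 2.5.0a, counted them in 150 bp windows with MEDIPS (1 copy of identical reads kept, reads extended to 150 bp), dropped windows without CpGs or with few reads, and normalized with edgeR 3.34.1. Deposited by the authors were log2 RPKM, with a score giving the CpGs of each window, and 0 columns were unmapped. Whole reads were recovered at 100% of values (within 0.02 reads, mean prior 2 reads). Each window was fitted with limma 3.58.1 in R 4.3.3 to treatment, strain, their interaction, sex and age, in all 23 mice, with Benjamini-Hochberg adjustment over 210191 windows. Fits were tested on simulated data. Genes were taken from GENCODE M21. Named regions were all Akr1c14 regions, the smallest strain p of each gene (within 2 kb), and the 5 smallest p for interaction and for treatment in B6. Other regions, such as those called for strain, were picked after their values were seen. The cluster and the gene list were chosen with earlier results of these data known. Tables were made with pandas 2.3.3 and figures with matplotlib 3.10.9. The alternatives tried were other scalings, filters, pseudocounts, variance models and covariates, subsets of mice, and each mouse left out in turn.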

Additional observations from a re-analysis of the deposited data

Results flagged for a closer look

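In each group of mice at 22 named regions, the gap between the highest or lowest mouse and its neighbour was divided by the range of the group (Dixon's ratio). Of 88 groups, 4 had a mouse past the critical value for its size, and chance gives about 1 in 20 groups, or 4.4. At the index region of Akr1c14, B6 CORT+DFP mouse 3 had 4.901 log2 RPKM, with the other 5 between 4.616 and 4.697. It was the CORT+DFP mouse nearest to the B6 control mice. At chr13:4075051-4075200 in Akr1c14, B6 control mouse 3 had 3.886, with the others between 4.568 and 4.773. At chr13:4075501-4075650, D2 control mouse 3 had 5.012, with the others between 5.145 and 5.205. At chr13:4339651-4339800, B6 CORT+DFP mouse 2 had 4.924, with the others between 5.441 and 5.722.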

How the results depend on the processing

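At the named regions followed (6 strain calls in control mice and the B6 change at the index region), no estimate changed sign under any alternative, but strain calls were lost: all 6 with set in place of age (0.17 with an adjusted p of 0.749 at chr13:4069801-4069950), chr13:4339651-4339800 without age (0.28, adjusted p = 0.186) and after quantile normalization (0.25, adjusted p = 0.169), and chr13:4464151-4464300 without age (adjusted p = 0.0943) and without B6 control 2 (0.43, adjusted p = 0.0686). The 12 regions higher in D2 control mice were 20 with voom weights on the recovered reads and 2 with set in place of age, where the 1 lower region became 0 and 2 of the 13 called regions were kept. Of all 210191 regions, 22078 were higher in the main fit, 26636 with voom and 9786 with set in place of age. The cluster regions higher in D2 among CORT+DFP mice (10) were 18 with voom, 5 with set in place of age and 2 in set 1 alone. Over all regions the counts were 23180 in the main fit, then 36901, 16046 and 9488 in the same order. At an unadjusted p under 0.05, the 7 treatment regions in B6 were 2 without age and 4 with set in place of age, with the index region left in. Over all regions the counts were 12172 in the main fit, 7983 without age and 10005 with set in place of age. The 3 treatment regions in D2 were 0 after quantile normalization and 1 without age, with voom or in set 3 alone. Over all regions the counts were 11485 in the main fit, then 4482, 9002, 10861 and 11787 in the same order. The 13 interaction regions, the index region included, were 3 without age, against 14803 and 8407 of all regions. With the log2 of the reads as a covariate, 1 region differed between the sexes. Set in place of age, the reads as a covariate and single sets of D2 or set 1 mice were chosen after seeing the data, as were voom and quantile normalization for D2 or CORT+DFP mice. With each mouse left out in turn, regions higher in D2 control mice were 9 to 14 and lower 1 to 1. Of all regions, 19214 to 22665 were higher in these fits. Cluster regions higher in D2 among CORT+DFP mice were 6 (without B6 CORT+DFP 6) to 12, against 19697 to 23424 of all regions. Treatment regions in B6 were 5 to 10, against 8526 to 16475 of all regions. Treatment regions in D2 were 1 (without D2 control 1 or 3) to 5 (without D2 CORT+DFP 4), against 9418 to 13058 of all regions. Interaction regions were 7 (without B6 control 1 or B6 CORT+DFP 6) to 15, against 11260 to 18679 of all regions. Sex regions were 0 to 1 (without B6 CORT+DFP 1, or B6 control 1 or 2), and strain calls in the gene list 12 to 15. No paired analysis was possible because the labels give no replicate number that mice of different groups share. The cause of these shifts was not tested. Age and set overlap with strain. The median SE was 0.16 for strain in control mice and 0.22 for the interaction, at a median of 45 reads per region.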
